A study of Mus musculus with 6 samples.

Results

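Complement C1q and the receptors that read complement fragments were followed as 9 genes, picked by name from the 55487 genes of the deposited table: C1qa, C1qb, C1qc, C3, C4b, C3ar1, C5ar1, Itgam and Itgb2. All 9 were found once each, and all 9 passed the filter of at least 10 reads in at least 3 libraries that left 20459 genes for testing. RNA was taken from cells sorted as retinal vascular endothelial cells (VECs) from P7.5 pups. The cells carried GFP, made from the Pdgf-icreER transgene, and tdTomato, made after Cre recombination, and were sorted for both. The control group was tdTomato FL/+;Pdgf-icreER, and the Bmal1;CKO group was Bmal1 FL/FL;tdTomato FL/+;Pdgf-icreER, with 3 libraries each. Every pup, of either genotype, carried the tamoxifen-inducible Cre under a Pdgf promoter and was given tamoxifen over P0.5 to P2.5, retinas were taken at ZT6, and the strains were on a C57BL/6J background. The controls carried no floxed Bmal1 allele, so that the floxed allele and its deletion cannot be told apart. The labels do not say whether a library came from 1 pup or a pool.

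Complement tags cells, synapses and debris for removal. C1q is built from 3 chains, encoded by C1qa, C1qb and C1qc, and starts the classical pathway, in which C4 and then C3 are cleaved. The fragment C3a is read by C3aR and C5a by C5aR1, whereas cell-bound C3 fragments are taken up through complement receptor 3, the integrin pair of Itgam (CD11b) and Itgb2 (CD18). In the retina and brain, microglia are the main known source of C1q and carry these receptors, and they are known for removing synapses and for contacts with growing vessels.

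The 3 C1q genes lie side by side on the reverse strand of chromosome 4 of GRCm38, within 18676 bases from 136880128 to 136898803. C1qb (136880128 to 136886187) is followed by C1qc (136889803 to 136893065) and C1qa (136895916 to 136898803), with gaps of 3615 and 2850 bases, and each has 3 blocks of exons. No RefSeq promoter was matched for C1qa, so only stretches upstream of C1qb and C1qc are shown. They are the reference sequence of RefSeq (GRCm38.p6, reverse strand, written 5′ to 3′), cut so that no annotated exon is included. The capitals mark GAGGAA or its reverse complement TTCCTC, the core of the PU box bound by PU.1, the product of Spi1 and a master factor of microglia and macrophages.
C1qb, chr4:136886201-136886450: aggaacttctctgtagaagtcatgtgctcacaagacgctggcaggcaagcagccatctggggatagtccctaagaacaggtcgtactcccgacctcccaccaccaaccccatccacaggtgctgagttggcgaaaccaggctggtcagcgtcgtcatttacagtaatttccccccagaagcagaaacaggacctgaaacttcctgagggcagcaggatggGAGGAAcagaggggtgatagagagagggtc
C1qc, chr4:136893066-136893164: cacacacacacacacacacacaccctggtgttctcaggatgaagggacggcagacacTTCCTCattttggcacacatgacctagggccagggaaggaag

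The letters GAGGAA begin 30 bases before the RefSeq start of C1qb, and TTCCTC begins 193 bases before that of C1qc. RefSeq promoters were matched for 6 of the 9 genes, and not for C1qa, C4b and Itgb2. Over the 250 bases upstream these letters, on either strand, were present in 3 of the 6 (C1qb, C1qc and Itgam), against 23.3% of all 32851 promoters. The E-box CACGTG, the sequence that BMAL1 and CLOCK bind, reads the same on both strands and was in 0 of the 6 windows of 300 bases (250 before to 50 after the start), against 7.15% of all promoters. A match or its absence describes the letters of these windows only.

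Values are normalized counts, that is reads on a gene divided by the size factor of the library. Libraries are numbered as in the table, where 1, 2 and 3 are controls and 4, 5 and 6 are Bmal1;CKO, and they held between 71145068 and 104017800 reads on genes. Bmal1, listed as Arntl, had 1700, 3489 and 2928 normalized counts in control libraries 1 to 3 and 1779, 2747 and 2415 in Bmal1;CKO libraries 4 to 6, so that the whole-gene count did not separate the genotypes. By ddPCR of sorted endothelial cells, another measure, the paper reported significantly less Bmal1 transcript in the mutant. The labelled cell type was present, with all 14 endothelial markers tested and a summed level of 194055 to 372253 in control and 116925 to 245644 in Bmal1;CKO. The 12 microglia genes of a reference list that holds none of the 9 genes, among them Csf1r, Cx3cr1, P2ry12 and Tmem119, summed to 695384 to 1552192 and to 1025305 to 1490313. In every library this sum exceeded that of the 14 endothelial markers. Control library 3 stood apart in pericyte markers: the 7 of them summed to 46572 there and to 2631 to 8308 in the other libraries, the lowest being control library 1. Markers of other retinal cells were present too. The 8 rod markers summed to 437381 to 478561 in control and 271349 to 512269 in Bmal1;CKO. The 8 markers of astrocytes and Mueller glia summed to 29045 to 34295 and to 29062 to 39943. In each result below, fewer cells of a type and less RNA per cell cannot be told apart.

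C1q was among the most abundant messages of these libraries, and which of the cells in them made it was not tested. C1qb had 1855096, 594051 and 654743 normalized counts in control libraries 1, 2 and 3, and 1849261, 1150365 and 774930 in Bmal1;CKO libraries 4, 5 and 6. By normalized count it had rank 3 of all genes in each control library and rank 2 in each Bmal1;CKO library. C1qc had 1191662, 361485 and 426576 in control and 1125542, 740304 and 522297 in Bmal1;CKO. C1qa had 542514, 196837 and 201803 in control and 513235, 378309 and 274301 in Bmal1;CKO. For each chain, control library 1 was the highest of the 6 and control libraries 2 and 3 the lowest, while the 3 Bmal1;CKO libraries lay between, so that the groups overlapped. The 3 genes together took 1.55% to 3.34% of the reads on genes in control and 2.04% to 3.49% in Bmal1;CKO.

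**Figure D1:**
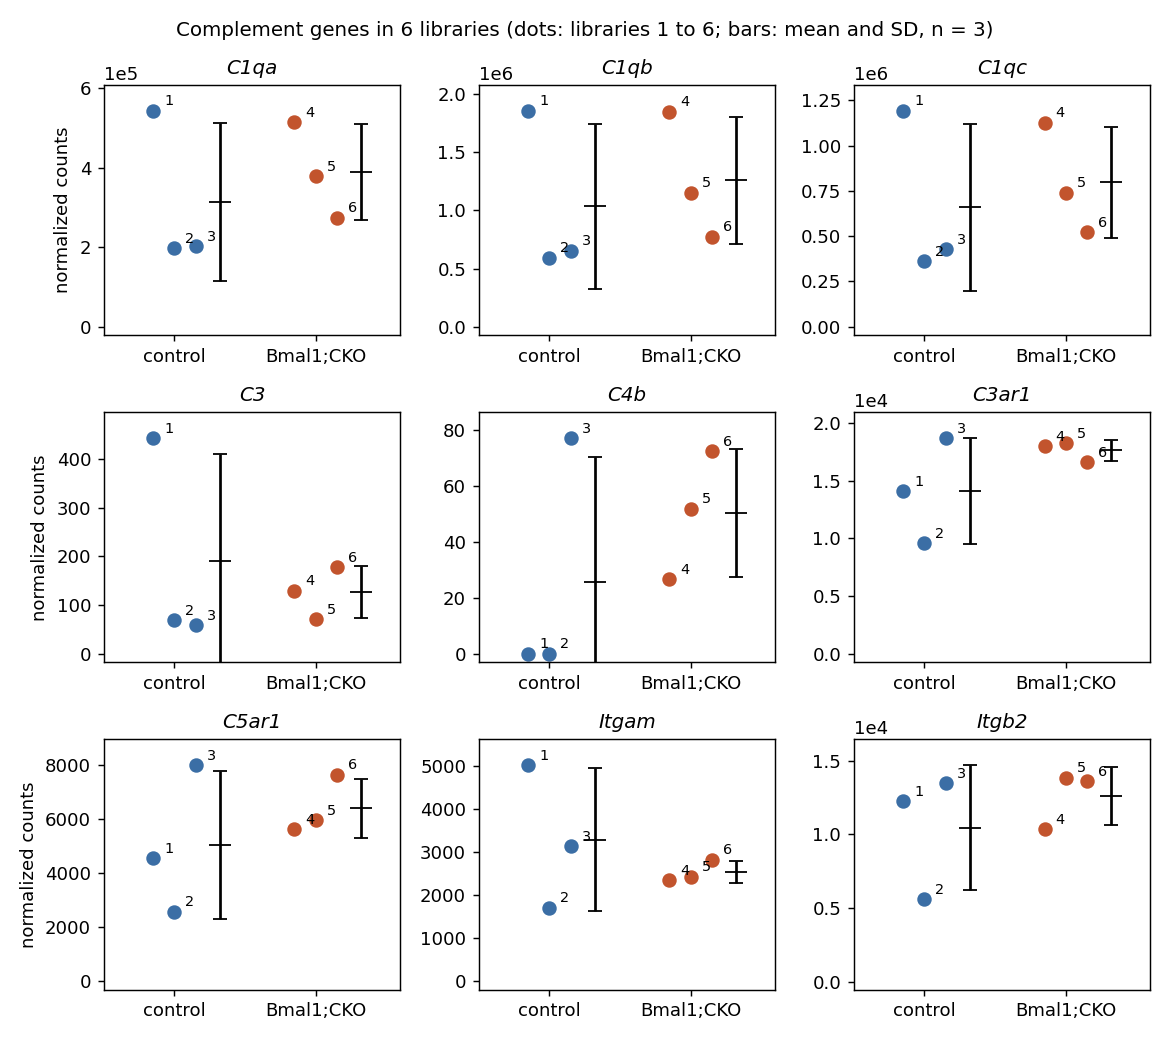
Normalized counts (vertical axis, linear scale) of each of the 9 genes in the 3 control and 3 Bmal1;CKO libraries. Dots are libraries, numbered 1 to 6, and bars give the mean and SD of a group; in every panel the dots of the groups overlap, and for C3 the lower end of the control bar lies below 0 and is not drawn.

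The means of the C1q chains were higher in Bmal1;CKO by less than the spread between libraries. The mean of C1qb was 1034630.0 ± 711192 normalized counts for control and 1258185 ± 545221 for Bmal1;CKO (SD, n = 3 each). Its log2 fold change was 0.40, with a standard error of 0.73 and a 95% interval of -1.31 to 2.10 (adjusted p = 0.919 from limma-trend). C1qc gave 0.41 (interval -1.12 to 1.95, adjusted p = 0.908 from limma-trend) and C1qa 0.44 (interval -0.83 to 1.70, adjusted p = 0.895 from limma-trend). For C1qb the interval runs from 0.404-fold to 4.30-fold of the control level, so these libraries set neither the size nor the direction of a difference. Without control library 1 the log2 fold changes of C1qa, C1qb and C1qc were 0.92, 0.92 and 0.95, and in these genes and in C3 both remaining control libraries then lay under every Bmal1;CKO library. That made 4 of the 9 genes without overlap, where 25.7% of all tested genes had none. Without Bmal1;CKO library 4 they were 0.21, 0.07 and 0.13.

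The balance of the chains held within narrow limits while their level moved 3.05-fold across the 6 libraries. C1qb took 49.3% to 53.0% of the reads on the 3 genes, C1qc 31.4% to 33.2% and C1qa 14.7% to 17.5%. The log2 ratio of C1qa to C1qb was -1.69 ± 0.09 in control and -1.65 ± 0.18 in Bmal1;CKO (SD, n = 3 each; difference 0.04, two-sided exact permutation test, p = 0.8). That of C1qc to C1qb was -0.66 ± 0.05 and -0.64 ± 0.07 (SD, n = 3 each; difference 0.02, p = 0.7 in the same exact permutation test). The smallest p that 3 libraries against 3 allow is 0.1. A ratio within a library does not depend on its size factor. Over the 6 libraries the ratio of C1qc to C1qb spanned 1.11-fold and that of C1qa to C1qb 1.28-fold.

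**Figure D2:**
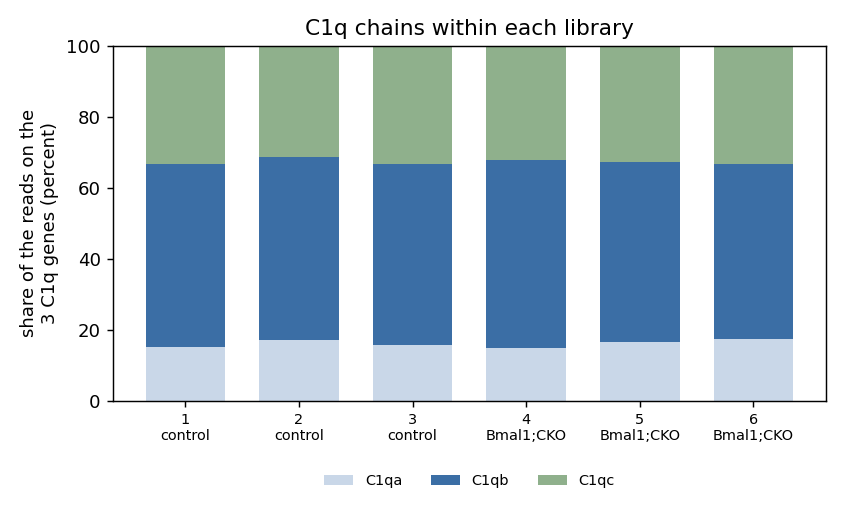
Share of the reads on the 3 C1q genes (vertical axis, percent) taken by each chain in each library (horizontal axis). The bars are almost alike in all 6 libraries, with C1qb at 49.3% to 53.0% and C1qa lowest, in control and in Bmal1;CKO.

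Levels per kilobase of annotated exon, a scale that allows for gene length, put the 9 genes into 3 tiers. C1qb was highest at a mean of 1053684 normalized counts per kilobase over the 6 libraries, followed by C1qc at 376995 and C1qa at 337660.0. C1qb exceeded C1qc in 6 of 6 libraries, whereas C1qc exceeded C1qa in 5 of 6, so the order of the latter pair was not the same in every library. The receptors formed the second tier, with Itgb2 at 3774, C3ar1 at 3684, C5ar1 at 2228 and Itgam at 578 per kilobase. Itgb2 and C3ar1 changed places between libraries (Itgb2 higher in 4 of 6), and C3ar1 exceeded C5ar1, and C5ar1 Itgam, in 6 of 6. C3 at 30.8 and C4b at 6.68 per kilobase were lowest, with C3 above C4b in 5 of 6 libraries. Exon lengths were those of all exons annotated in GENCODE M21, which may exceed the length of the message made. They were 1040 bases for C1qa, 1088 for C1qb and 1931 for C1qc, so the small gap between C1qc and C1qa rests on them.

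Of the receptors, C3ar1 (chromosome 6, 122847137 to 122856161, reverse strand), which binds C3a, was the least variable in Bmal1;CKO. It had 14065, 9561 and 18696 normalized counts in control libraries 1, 2 and 3 and 17996, 18266 and 16582 in Bmal1;CKO libraries 4, 5 and 6. Control library 3 was the highest of all and control library 2 the lowest. C5ar1 (chromosome 7, 16246742 to 16259540, reverse strand), the receptor of C5a, had 4556, 2564 and 8007 in control and 5626, 5955 and 7653 in Bmal1;CKO. Its control libraries again spanned the whole range. The log2 fold changes were 0.37 for C3ar1 (standard error 0.29, 95% interval -0.30 to 1.05) and 0.48 for C5ar1 (standard error 0.42, interval -0.48 to 1.45), each with an adjusted p of 0.883 from limma-trend.

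Itgam and Itgb2, the chains of complement receptor 3, differed in the direction of their means. Itgam (chromosome 7, 128062639 to 128118491, forward strand) had 5013, 1698 and 3125 normalized counts in control and 2347, 2419 and 2814 in Bmal1;CKO. The Bmal1;CKO libraries lay close together inside the range of the control libraries. Itgb2 (chromosome 10, 77530251 to 77565708, forward strand), which also pairs with other integrin chains, had 12261, 5582 and 13479 in control and 10340.3, 13840.2 and 13616 in Bmal1;CKO. Only control library 2 stood low. The log2 fold change was -0.24 for Itgam (standard error 0.41, 95% interval -1.19 to 0.70, adjusted p = 0.909 from limma-trend) and 0.36 for Itgb2 (standard error 0.37, interval -0.50 to 1.22, adjusted p = 0.886 from limma-trend). Itgam turned to 0.13 without control library 1, and Itgb2 to -0.04 without control library 2. In a comparison picked after the values were seen, and therefore given without a test, the log2 ratio of Itgam to Itgb2 was -1.29, -1.72 and -2.11 in control libraries 1, 2 and 3 and -2.14, -2.52 and -2.27 in Bmal1;CKO libraries 4, 5 and 6. Control library 3 and Bmal1;CKO library 4 were only just apart.

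C3 and C4b, the components that C1 activity leads to, were the lowest of the 9 genes, with 75 to 360 reads per library for C3. C3 (chromosome 17, 57203969 to 57228136, reverse strand) had 443, 69.6 and 59.3 normalized counts in control and 129, 71.7 and 178 in Bmal1;CKO. Control library 1 was far above the rest, and control libraries 2 and 3 were the lowest, just under Bmal1;CKO library 5. Its log2 fold change was -0.05 (standard error 0.99, 95% interval -2.35 to 2.25, adjusted p = 0.994 from limma-trend), and it became 0.87 without control library 1.

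C4b (chromosome 17, 34728379 to 34743882, reverse strand) had 0, 0 and 108 reads in control libraries 1, 2 and 3 and 19, 60 and 88 in Bmal1;CKO. These were 0, 0 and 77.2 normalized counts against 26.7, 51.8 and 72.5, so that the highest and the lowest libraries were both controls. A count of 0 allows up to 3.69 normalized counts in control library 1 and 2.78 in control library 2, a limit that covers counting error only. The fitted log2 fold change of 3.48 (standard error 1.85, interval -0.83 to 7.78, adjusted p = 0.883 from limma-trend) rests on those zeros and on the pseudocount: it was 4.13 with a pseudocount of 0.5, 1.48 with a pseudocount of 10, 3.95 by limma-voom, 0.94 with edgeR and TMM scaling, and 2.43 to 5.57 with 1 library left out (5.57 without control library 3). C4b has a near-identical neighbour, C4a, separated from it by 65208 bases, and the reads of the pair may be split by the counting. C4a had 65.9 normalized counts in control library 2, 17.3 in Bmal1;CKO library 6, and at most 0.864 elsewhere. Summed over both genes, an alternative chosen after seeing the data, the levels were 0, 65.9 and 77.2 in control and 26.7, 52.7 and 89.8 in Bmal1;CKO, with overlap between the groups (n = 3 each, p = 0.8 in a two-sided exact permutation test).

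Across the 9 genes, 0 had an adjusted p under 0.05, 0 had an unadjusted p under 0.05, and 0 had groups that did not overlap. Over all 20459 tested genes these shares were 0.0%, 4.92% and 11.2% (6.62% higher and 4.54% lower in Bmal1;CKO). Other tools also called 0 of the 9, with 0.327% of all genes called by DESeq2 without shrinkage, 0.171% by DESeq2 with a prior on fold changes and 0.298% by limma without the trend. Of the 9 log2 fold changes 7 were above 0 and 2 below it, and their median was 0.40, beside 56.6% of all tested genes higher and a median of 0.11 over all of them. Without control library 1, 9 of 9 were higher and the median was 0.87, beside 50.1% and 0.0016 over all tested genes. The 12 microglia genes then had 11 higher and a median of 0.61. Without control library 2, 6 of the 9 were higher and the median was 0.09, beside 55.1% and 0.08 over all tested genes. The median of the 9 was 0.21 without control library 3 and 0.21 without Bmal1;CKO library 4, beside 0.15 and 0.14. It therefore rested on single libraries of both groups. Without control library 3, C4b, C3ar1 and C5ar1 did not overlap, 3 of the 9 genes beside 30.7% of all tested genes.

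Because the C1q genes and the receptors are genes of microglia and macrophages, they were also set against the 12 microglia genes of the same library. All 12 were tested, with 10 higher and 2 lower (median log2 fold change 0.27), and 0 had groups that did not overlap. The mean log2 level of the C1q genes exceeded that of the 12 by 3.43, 2.94 and 2.60 in control libraries 1, 2 and 3 and by 3.49, 3.20 and 2.86 in Bmal1;CKO libraries 4, 5 and 6. The groups overlapped, at 2.99 ± 0.41 and 3.18 ± 0.32 (SD, n = 3 each), a difference of 0.19 (two-sided exact permutation test, p = 0.6). The receptors lay below the microglia genes, at -3.64, -3.54 and -2.83 in control and -3.69, -3.27 and -2.99 in Bmal1;CKO, a difference of 0.02 (n = 3 each, two-sided exact permutation test, p = 1). C3 and C4b lay at -12.19, -12.40 and -9.85 in control and -10.56, -10.24 and -9.17 in Bmal1;CKO, a difference of 1.49 (n = 3 each, two-sided exact permutation test, p = 0.3) in which the zeros of C4b weigh. That difference was 0.48 with a pseudocount of 10 and 1.03 to 2.30 with 1 library left out (2.30 without control library 3).

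**Figure D3:**
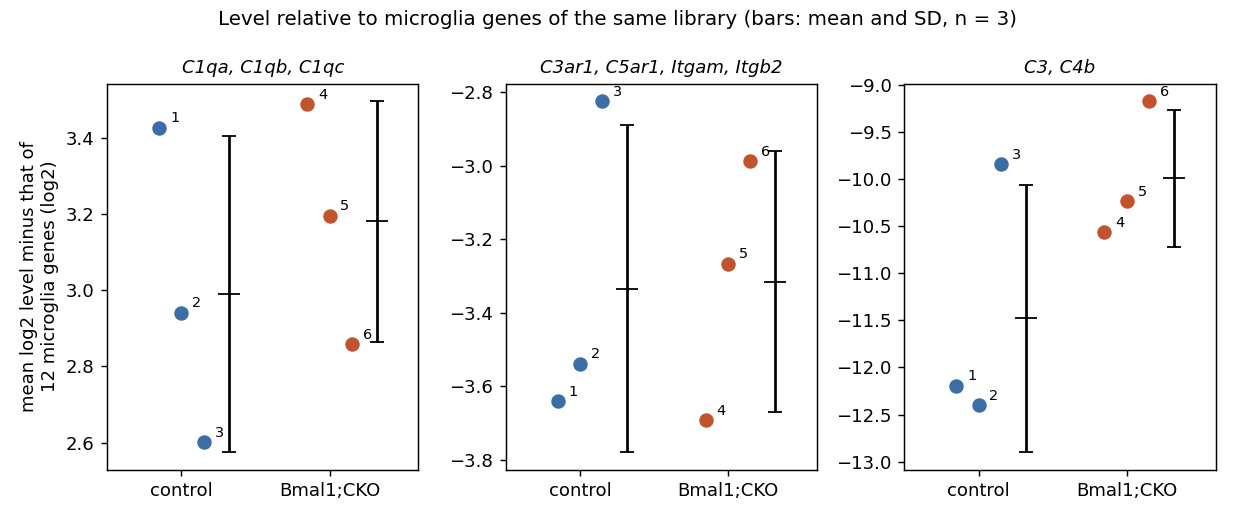
Mean log2(normalized count + 1) of the C1q genes, of the 4 receptors and of C3 and C4b, each minus the mean of 12 microglia genes of the same library (vertical axes, log2, with different ranges). Dots are libraries 1 to 6 and bars the mean and SD of 3; the groups overlap in each panel, libraries 1 and 4 are the highest for C1q, and the same libraries are the lowest for the receptors.

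C1q and the receptors moved together in some libraries and not in others. Control library 2 had the lowest mean log2 level of the 6 libraries for both, 18.4 for C1q and 11.9 for the receptors. Control library 1 and Bmal1;CKO library 4 had the highest C1q levels of their groups, 2.69- to 2.83-fold those of control library 3 in the first and 1.87- to 2.39-fold those of Bmal1;CKO library 6 in the second. In the same pairs of libraries C5ar1 stood at 0.569-fold and 0.735-fold, and Itgb2 at 0.910-fold and 0.759-fold. C3ar1 stood at 0.752-fold and 1.09-fold, and Itgam at 1.6-fold and 0.834-fold, so that the first pair had Itgam on the side of C1q. Another pair went otherwise: control library 1 exceeded control library 2 in every receptor gene, as it did in the C1q genes. The log2 gap between the C1q genes and the receptors was 7.07, 6.48 and 5.43 in control libraries 1, 2 and 3 and 7.18, 6.46 and 5.85 in Bmal1;CKO libraries 4, 5 and 6. It varied by 1.75 across the libraries and by 0.17 between the means of the groups. Libraries 1 and 4 had the smallest size factors (0.813 and 0.711) and the fewest genes with a read of their groups (21598 and 22142), and the part of these in the pattern was not tested.

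The microglia reference genes showed both patterns. Trem2, a microglial lipid receptor that signals through Tyrobp, stayed closest to C1q, with an SD of 0.08 (log2) in its ratio to C1q over the 6 libraries. The corresponding SD was 0.28 for Tyrobp and 0.32 for the protease gene Ctss, but 0.66 for the growth factor receptor gene Csf1r and 0.69 for P2ry12, close to the 0.67 of C3ar1 and the 0.71 of Itgb2. Among 20450.0 tested genes outside the 9, the 5 whose centred log2 profile over the 6 libraries was nearest to that of the C1q mean were Trem2, Dcxr, Tnfaip8l2, Cd79b and Rilpl2. Their root mean square difference from it was 0.07 to 0.09 (log2). For the mean of C3 and C4b the nearest genes were Nynrin, Gm13882, Gm2027, Gm29794 and Gm4118, at 0.28 to 0.37, a much looser match over few reads.

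**Figure D4:**
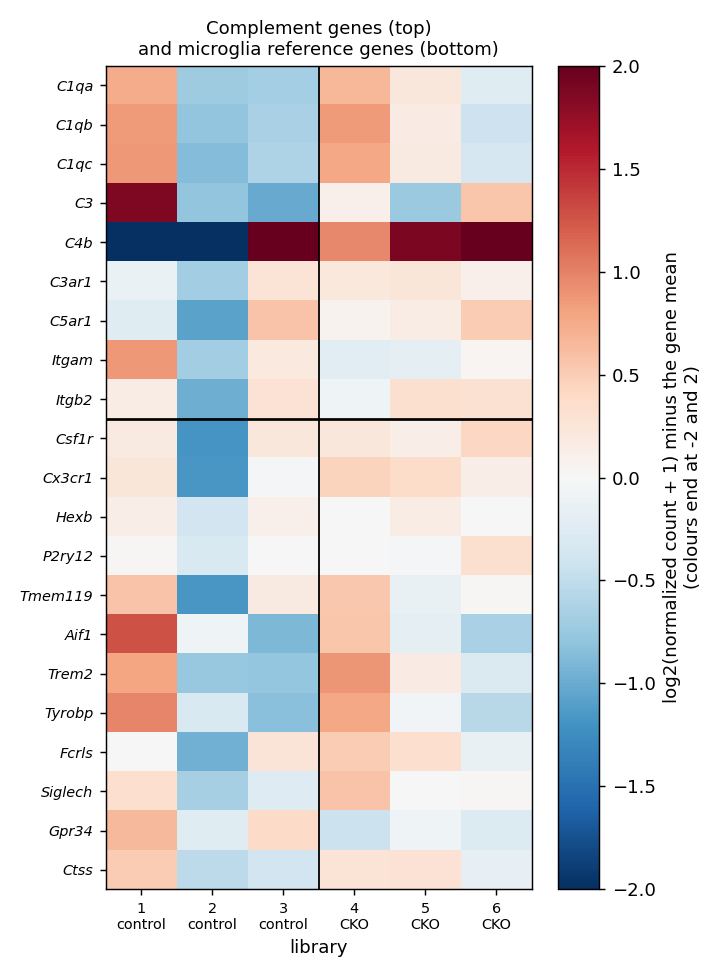
Log2(normalized count + 1) of each gene minus its own mean over the 6 libraries (colour), for the 9 complement genes (upper rows) and 12 microglia genes (lower rows), by library (columns). C1qa, C1qb, C1qc, Trem2 and Tyrobp are high in libraries 1 and 4, while C5ar1 and Csf1r are low mainly in library 2; C4b runs past the ends of the colour scale.

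Markers of other cells that carry Itgam or C1q summed to far less than the microglia genes. Of the 7 neutrophil and monocyte markers 2, Ly6g and Ngp, had 0 reads in all libraries, and the list summed to 1.23 to 15.7 normalized counts in control and 16.4 to 107 in Bmal1;CKO. The largest single value was 83.0 for Ly6c2 in library 4. Of the 7 perivascular macrophage markers, Cd163 and F13a1 had at most 3 reads in any library, whereas Pf4 had 135 to 653 and Ms4a7 181 to 538. Lyve1 had 0, 1 and 4 reads in control libraries 1, 2 and 3. In Bmal1;CKO libraries 4, 5 and 6 it had 0, 56 and 215, and it did not pass the filter for testing. Of the 4 markers of the list that passed, Mrc1 was higher in Bmal1;CKO, and Pf4, Cbr2 and Ms4a7 were lower. Their median log2 fold change was -0.71. The list summed to 765 to 1544 in control and 470 to 1405 in Bmal1;CKO. The 6 lymphocyte markers summed to at most 36.6. These sums compare with at least 695384 for the 12 microglia genes. Against the endothelial markers, the C1q genes were higher by 6.93, 6.04 and 6.62 (log2) in control libraries 1, 2 and 3 and by 7.96, 7.95 and 6.19 in Bmal1;CKO libraries 4, 5 and 6, a difference of 0.84 (n = 3 each, two-sided exact permutation test, p = 0.3) whose groups overlapped. It was 0.54 without Bmal1;CKO library 4, 0.55 without library 5 and 1.43 without library 6. The endothelial markers themselves had a median log2 fold change of -0.50, with 13 of 14 lower in Bmal1;CKO. Of all tested genes 56.6% were higher. By limma-trend, 0 of the 14 had an adjusted p under 0.05. Their median was -0.16 without control library 1 and -0.16 without Bmal1;CKO library 5, with 11 lower in each case. It was -0.86 without Bmal1;CKO library 6. The part of the endothelial markers in the difference from C1q was not tested.

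The rest of the complement system was read from a list of 49 further genes, of which 28 passed the filter. Bmal1;CKO was higher in 18 of these and lower in 10, and their median log2 fold change was 0.23. Over all tested genes 56.6% were higher and the median was 0.11. Without control library 2, 14 of the 28 were higher and 14 lower, with a median of 0.08 beside 0.08 over all tested genes. By limma-trend on all libraries, 0 of the 28 had an adjusted p under 0.05 and 1 (Cd59a) an unadjusted p under 0.05. Groups did not overlap in 5 of the 28, 4 higher and 1 lower, beside 11.2% of all tested genes. With any 1 library left out, 4 to 6 of the 28 were higher and 2 or 3 lower without overlap, beside 16.9% to 30.7% of all tested genes in either direction.

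The upstream proteases and lectins were low or uneven. Of the 4 C1 protease genes only C1ra passed the filter, with 0, 0 and 52.9 normalized counts in control and 59.1, 91.6 and 33.8 in Bmal1;CKO, the same pair of control libraries at 0 as for C4b. Of 8 lectin pathway genes 3 passed. Fcna, a ficolin of macrophages, had 1410.0, 261 and 249 in control and 1210, 1011 and 599 in Bmal1;CKO, highest in libraries 1 and 4, as was C1q. Masp1, a protease of the lectin pathway, had 11.1, 38.0 and 687 in control and 294, 207 and 257 in Bmal1;CKO. Of 7 terminal pathway genes, 5 had at most 3 reads in any library, and only C8g passed, at 587 ± 358 and 524 ± 102 (SD, n = 3 each).

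Cfb, the protease of the alternative pathway, had 41.8, 56.6 and 102 normalized counts in control and 210, 166 and 149 in Bmal1;CKO. Each Bmal1;CKO library exceeded every control library, and the log2 fold change was 1.46 (standard error 0.76, interval -0.31 to 3.22, adjusted p = 0.883 from limma-trend). The membrane inhibitors of the terminal complex, Cd59a and its neighbouring paralog Cd59b, were likewise separated. Cd59a had 135, 911 and 546 in control and 1456, 1190 and 1132 in Bmal1;CKO. Its log2 fold change was 1.62 (standard error 0.69, unadjusted p = 0.0498, adjusted p = 0.883 from limma-trend) and became 0.83 without control library 1. Cd59b had 1.23, 5.57 and 7.15 against 18.3, 25.0 and 10.7, and reads of the pair may be shared. In reads, Cd59b had only 1, 6 and 10 in control and 13, 29 and 13 in Bmal1;CKO. Its log2 fold change was 1.87 (standard error 1.17, unadjusted p = 0.149, adjusted p = 0.883 from limma-trend). Csmd2, a membrane protein with complement control domains, had 3.69, 77.9 and 57.9 against 124, 137 and 83.2.

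Megf10, a phagocytic receptor of glia that can bind C1q, was the 1 gene of the 28 whose Bmal1;CKO libraries all lay below the control libraries, at 122, 178 and 93.6 normalized counts in control and 74.5, 82.9 and 66.7 in Bmal1;CKO. The soluble regulators Vtn and Clu, which hold back the terminal complex, went opposite ways in their means. Vtn had 5425 ± 3558 in control and 2796 ± 408 in Bmal1;CKO, and Clu 3004 ± 1392 and 3693 ± 878 (SD, n = 3 each), each within the spread between libraries. Control libraries 1, 2 and 3 had 2525, 4354 and 9395 normalized counts of Vtn. The log2 fold change of Vtn was -0.76, with -0.26 without control library 3 and -1.20 without control library 1. In the 28 genes the adjusted p lay between 0.883 and 0.997 (limma-trend).

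**Figure D5:**
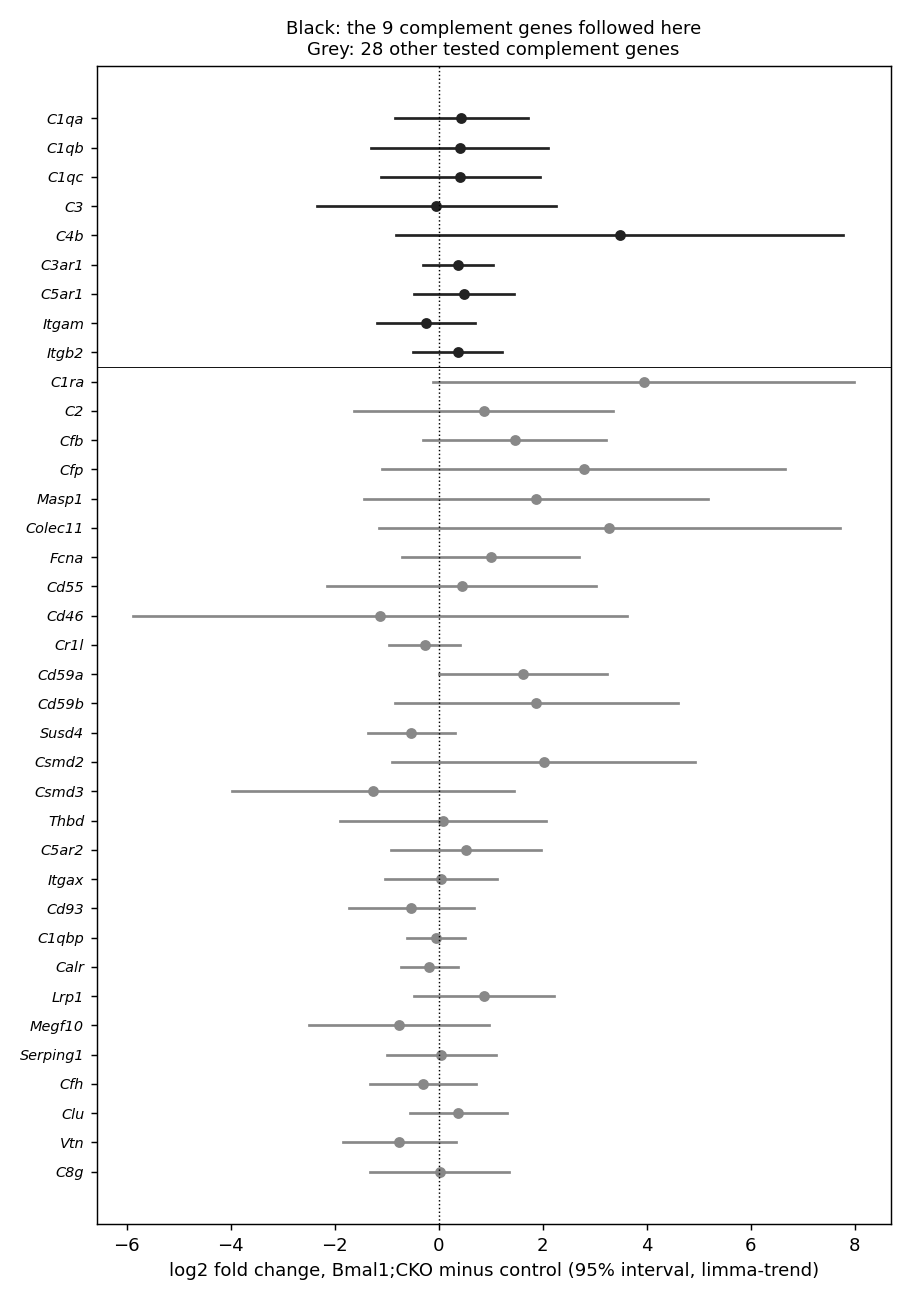
Log2 fold change of Bmal1;CKO against control (horizontal axis) with its 95% interval from limma-trend, for the 9 complement genes (black, upper rows) and the 28 other tested complement genes (grey). Every black interval spans 0, and among the grey ones only that of Cd59a lies just above it. C4b, C1ra and Colec11, each with 2 control libraries at 0 reads, are among the widest.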

How the data were processed

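Amplification used Smart v4 and library preparation Nextera XT, followed by paired-end sequencing, with 3 libraries per genotype. The authors used FastQC and Trimmomatic on the reads, Bowtie for alignment to mm10 (GRCm38) and featureCounts for counts per gene. Tool versions and the use of strand are not given in the sources used here. The authors deposited a signal per gene and library, the read count divided by the DESeq2 size factor. The deposited table also holds their fold changes and p-values, which were not used. Its column numbers differ from those of the labels, so columns were taken as replicates of the genotype that they name.

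Each column divided by its smallest step gave whole reads (within 0.01) for 100% of values. Genes reaching 10 reads in 3 or more libraries were tested with limma-trend on log2(normalized count + 1), genotype as the only term and Benjamini-Hochberg adjustment over all of them (R 4.3.3, limma 3.58.1). Alternatives used edgeR 4.0.16 and DESeq2 1.42.0 on the recovered reads, other pseudocounts (0.5 and 10), filters and scalings, and each library left out. For single values, two-sided exact permutation tests used all 10 distinct ways to split 6 libraries. The fits were tested on simulated data with the same dispersion set for every gene, which does not show what differences they could find at the spread seen here. Exon lengths came from GENCODE M21, which holds 55141 of the 55487 identifiers. The libraries held 71145068 to 104017800 reads on genes, and limits from counts cover counting error only.

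The members, lists and tests were chosen with earlier results of these data known. Further genes were named when their unadjusted p was under 0.05 or their groups did not overlap, or, in a role without such a gene, for the highest mean level. The 5 genes nearest in profile to C1q and to C3 with C4b were also named. Replicates are separate libraries; where they are not separate pups, p-values measure only the spread between libraries.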

Additional observations from a re-analysis of the deposited data

How the results depend on the processing

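No paired analysis was possible because the numbers in the table's columns do not match those of the samples, and the labels name no shared litter or day. None of the 9 genes was called under any of the 17 alternative fits, though C4b was not tested where 10 reads in every library were asked for and had no adjusted p from DESeq2 with a prior. Over all genes, 0 were called by limma-trend (1007 at an unadjusted p under 0.05), 1 with at least 1 read in total, 1 with at least 10 reads in every library, 61 by limma without the trend, 67 by DESeq2 without shrinkage, 35 by DESeq2 with a prior on fold changes, and 0 by edgeR. Without 1 library it was 0 to 6, the latter without control library 1. The count of the 9 whose groups did not overlap was 0 to 4 with 1 library left out (4 without control library 1, 3 without control library 3, and 1 each without control library 2 and Bmal1;CKO library 4). The background was then 16.9% to 30.7%.

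C1q against the microglia genes ran from -0.0028 to 0.41 without 1 library, turning sign without control library 3. The receptors ran from -0.15 to 0.27 and were -0.0088 with 8 homeostatic microglia genes and -0.030 with 8 genes of all myeloid cells as the reference. The ratio of C1qa to C1qb ran from -0.038 to 0.14 and that of C1qc to C1qb from -0.018 to 0.055. With 1 library left out, C3 ran from -0.57 to 0.87, Itgam from -0.65 to 0.13, Itgb2 from -0.042 to 0.59 and C8g from -0.46 to 0.48. C3 was 0.14 by limma-voom. C8g was -0.17 with edgeR and TMM scaling, -0.16 with edgeR and the size factors, -0.16 with DESeq2 without shrinkage and -0.11 with its prior. The cause of these changes was not tested. The median of all genes was 0.11 by limma-trend and -0.03 by edgeR. A count of 0 reads in 2 control libraries limits what can be said of C4b, C1ra and the lectin pathway gene Colec11. The spread between 3 libraries limits the other genes, C3 included.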
